A study of Rattus norvegicus with 6 samples.

Results

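Ephrins, semaphorins, slits and netrins are cues that tell a cell where to move, where to stop and which neighbour to avoid. They were first studied in growing nerve fibres and are also used by epithelia, vessels and connective tissue. Ephrins are ligands that stay on the cell surface, held by a lipid anchor (ephrin-A) or a membrane-spanning part (ephrin-B), and they bind Eph receptor tyrosine kinases on a touching cell, with signals passing into both cells. Semaphorins act through plexins, slits through robo receptors, and netrin-1 through Dcc and the Unc5 receptors. The genes described here were chosen by symbol, with earlier results of these data known. They were the Epha, Ephb, Efna, Efnb, Sema and Plxna to Plxnd genes. Added to these was a short list of slit, robo and netrin genes with the netrin receptors Unc5b, Unc5c and Dcc. Together they came to 88 of 31042 probe sets, which read 51 of 14217 named genes. A probe set is a group of short probes that together measure a transcript. For Robo4 and Ntn4, which the choice by symbol also covered, no probe set with that symbol alone was found. The same held for some members of the families, among them Efnb2, Ephb2, Sema7a and Plxnb3.

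RNA was measured on 6 Affymetrix rat arrays, 3 of each of 2 clonal cell strains. TDESM (BDEsp-TDESM) is a cancer-associated fibroblastic strain labelled as overexpressing Acta2, a smooth muscle actin, and TDECC (BDEsp-TDECC) is a cholangiocarcinoma (bile duct cancer) strain. Both were obtained from tumours that formed in young adult male Fischer 344 rats after their bile ducts received BDEsp cells, cholangiocytes that had transformed spontaneously. The labels give all arrays the same text, which names a co-culture in a gel of rat collagen type I and the TGFb inhibitors SB 431542 and LY2157299 without saying which cultures received them, so no treatment was compared. Each group is 1 clone. The labels do not give separate cultures for the 3 arrays of a clone, and the p-values therefore cover only array-to-array spread, which may be technical. Values are on the log2 scale, where 1 unit is a 2-fold difference, and all differences are TDESM minus TDECC.

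The marker genes fitted the labels. All 10 fibroblast markers were higher in TDESM (median level 13.64 in TDESM and 4.30 in TDECC), and all 9 measured bile duct epithelium markers were lower (3.58 and 13.44). Many guidance genes are also used by neurons, Schwann cells and vessels, so their markers were read too. Over 12 neuron markers the median was 4.03 in TDESM and 3.95 in TDECC, with 1 higher (Tubb3) and 1 lower (Map2). Over 9 endothelial markers it was 4.20 and 4.14, with 2 higher and 1 lower, over 6 Schwann cell markers 6.34 and 5.86, with 2 higher (Ncam1 and Pmp22), and over 9 leukocyte markers 4.77 and 4.52, with 0 either way. Snap25, a synaptic gene, was uneven in TDECC (3.95, 3.98 and 3.81 in TDESM, against 4.91, 9.67 and 6.06 in TDECC) and did not pass. Among the endothelial markers Flt1 (7.47 in TDESM and 5.62 in TDECC) and Egfl7 (8.47 and 7.03) were higher, and Pecam1 (3.43 and 3.80) was lower. Of the markers that did not pass, Cd14 of the leukocyte list (8.73 in TDESM, against 8.65, 10.88 and 11.64 on the TDECC arrays) and Egr2 of the Schwann cell list (7.71, against 6.24, 7.59 and 10.65) stood high and were uneven in TDECC. Rbfox3 of neurons (3.66 in TDESM and 3.95 in TDECC) and Ptprc of leukocytes (3.80 and 3.68) read low in both strains. Sox10 of Schwann cells (4.97 and 4.80) lay somewhat higher. Not all markers of these lists were low. Neuron markers with higher values were Elavl3 (7.25 in TDESM and 7.28 in TDECC), Map2 (6.40 and 7.27), Syp (6.58 and 6.23) and Tubb3 (6.11 and 4.79). So did Ncam1 (7.74 and 6.52) and Pmp22 (10.73 and 6.33) of Schwann cells and Lyz2 (5.82 and 5.97) of leukocytes read higher. The part of these cell types in the results was not tested. For scale, the lower quartile of all probe sets was 4.22 to 4.32 on the 6 arrays. Control probe sets for Trpn, a bacterial gene, read 2.80 to 3.53. The deposited values carry no detection calls, so no gene could be called absent, and a difference against values as low as those controls has no exact size. In such bulk RNA, fewer cells of a type and less RNA per cell cannot be told apart. The number of arrays limits the precision.

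Many guidance genes differed in level between the strains. TDESM had more Slit2, Slit3 and Robo2, the netrin receptor Unc5b, the semaphorins Sema3d, Sema3e and Sema5a, and ephrin-A5 (Efna5). It had less of the receptors Epha2, Epha4 and Plxnb1, of ephrin-A1 (Efna1), and of the semaphorins Sema3c, Sema3f, Sema4a, Sema4b, Sema4f and Sema6a. Of the 51 genes, each read by its brightest probe set on average, 17 were higher and 16 lower in TDESM by limma at an adjusted p of 0.05. That is 64.7%, beside 42.1% of all 14217 genes (21.8% higher and 20.3% lower). At least 2-fold were 11 higher and 15 lower (13.4% and 12% of all genes), and at least 4-fold 7 higher and 9 lower (6.2% and 5.35% of genes, 4.72% and 4.39% of probe sets). The median difference of the 51 genes was -0.07, against 0.00 over all genes, and the median size of a difference was 1.07, against 0.43. Values of the strains did not overlap for 38 of the 51 genes, beside 53.6% of all genes. Taken by probe set, 25 of the 88 were higher and 26 lower, beside 17.9% and 19% of all probe sets, and 61 did not overlap, beside 48.9%. An exact two-sided permutation test of 3 against 3 arrays cannot go below p = 0.1, so the adjusted p-values below come from limma fitted to all 31042 probe sets.

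The array medians were nearly equal (5.80 to 5.86), so a direction here is relative to a typical probe set. Poly-A control transcripts, added to RNA samples during labelling, read higher on the TDESM arrays (median 8.11 to 8.73 in TDESM and 6.94 to 7.18 in TDECC). With arrays centred on those controls the median probe set moved to -1.30, and 8 of the 51 genes were higher and 37 lower. The split for each family under this centring is given beside its counts.

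**Figure D1:**
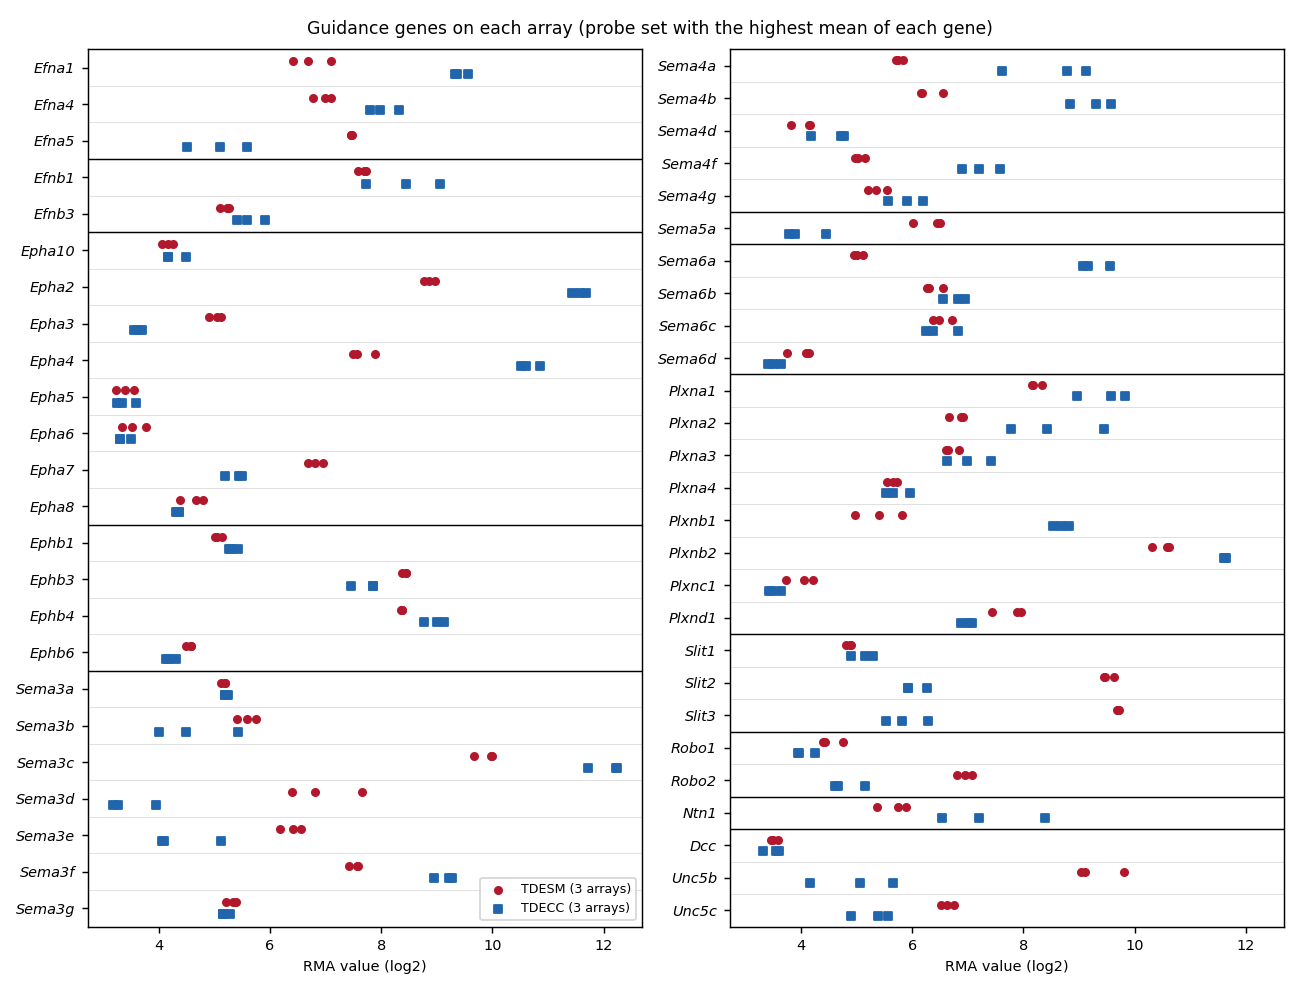
Log2 RMA values (horizontal axes) of the 51 guidance genes on each array, TDESM as red circles and TDECC as blue squares, 1 gene per line and families parted by black lines. For Slit2, Slit3, Robo2, Unc5b and Sema3d the TDESM points lie right of the TDECC points, and for Epha2, Epha4, Sema6a and Plxnb1 they lie left; levels of different genes are not comparable.

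A promoter is the stretch of DNA where the transcription machinery assembles to start transcription. Those of the members that differed most are shown because the genes moved with the strain. RefSeq promoter sequences of build GRCr8 were found for 37 of the 51 genes. The 250 bases before the annotated start are given 5′ to 3′ for the 2 genes with the largest difference in each direction among those matched, with the GC box GGGCGG (either strand) in capitals. Unc5b (chr20:29307271-29307520, minus strand) and Slit3 (chr10:20075679-20075928, plus strand) were higher in TDESM, and Sema6a (chr18:42358541-42358790, minus strand) and Plxnb1 (chr8:118622911-118623160, plus strand) were lower.
Unc5b: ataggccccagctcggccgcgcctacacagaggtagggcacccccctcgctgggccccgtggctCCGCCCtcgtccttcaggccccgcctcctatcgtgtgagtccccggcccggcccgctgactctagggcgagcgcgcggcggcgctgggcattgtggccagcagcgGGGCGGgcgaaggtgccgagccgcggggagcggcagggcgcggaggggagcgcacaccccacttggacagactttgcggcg
Slit3: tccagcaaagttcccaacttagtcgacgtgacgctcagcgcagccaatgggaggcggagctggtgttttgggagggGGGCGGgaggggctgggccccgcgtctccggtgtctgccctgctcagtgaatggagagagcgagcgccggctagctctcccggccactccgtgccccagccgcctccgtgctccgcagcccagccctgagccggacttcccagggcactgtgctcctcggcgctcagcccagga
Sema6a: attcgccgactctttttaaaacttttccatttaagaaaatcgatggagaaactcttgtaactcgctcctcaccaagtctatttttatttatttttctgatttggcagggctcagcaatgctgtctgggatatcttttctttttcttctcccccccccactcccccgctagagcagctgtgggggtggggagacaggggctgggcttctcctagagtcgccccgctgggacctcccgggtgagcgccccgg
Plxnb1: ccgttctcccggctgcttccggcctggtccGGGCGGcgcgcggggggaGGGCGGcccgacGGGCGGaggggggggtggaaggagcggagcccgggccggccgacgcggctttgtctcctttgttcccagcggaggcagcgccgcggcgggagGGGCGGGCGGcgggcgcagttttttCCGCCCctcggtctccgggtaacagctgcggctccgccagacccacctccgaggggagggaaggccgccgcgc
The Unc5b stretch holds 2 GC boxes and 30 CpG pairs, that of Slit3 1 and 20, that of Sema6a 0 and 10, and that of Plxnb1 6 and 36. A pair of the Plxnb1 boxes overlaps. A GC box stood in 21 of 38 member promoters (55.3%; 1 gene has 2), against 38.9% of 21851 promoters of protein-coding genes. It stood in 9 of 15 promoters of members higher in TDESM and in 8 of 12 of members lower. The TATA motif TATAAA was in 0 of 38, against 12.1%, the AP-1 motif TGANTCA in 1 (2.63%, against 5.69%), the TEAD motif GGAATG in 3 (7.89%, against 11%), and CAGGTG, an E-box, in 4 (10.5%, against 16%), all searched on both strands in the same 250 bases. The member promoters were also richer in G and C (median 59.8%, against 54.0% for protein-coding genes) and in CpG pairs (median 13.5, against 8). Whether the motif shares differ beyond this base composition was not tested. These motifs were picked with results of the data known, and the counts are descriptions of letters in a window.

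Slit2, Slit3 and the receptor Robo2 were higher in TDESM. Slits are large secreted proteins that bind robo receptors and repel many migrating cells. Of 5 genes, 4 were higher and 0 lower (3 and 2 centred on the poly-A controls). Slit2 read 9.47, 9.62 and 9.44 on the TDESM arrays, against 5.93, 6.26 and 5.93 on the TDECC arrays. The groups lie far apart, with little spread within each. The difference was 3.47 (SE 0.14, limma adjusted p = 2.65e-06), or 11.1-fold. A second probe set of Slit2 read 10.16, 10.28 and 10.12 in TDESM, against 3.15, 2.95 and 3.38 in TDECC, a difference of 7.03 (SE 0.14). The third read low in both strains, with means of 3.22 in TDESM and 3.32 in TDECC (adjusted p = 0.581 by limma). All values of the third probe set, and the TDECC values of the second, lie as low as the Trpn controls. The 7.03 is therefore no exact size, and the third probe set says little about Slit2. Slit3 read 9.69, 9.70 and 9.72 in TDESM, against 5.53, 5.82 and 6.29 in TDECC. It differed by 3.82 (SE 0.20, limma adjusted p = 9.56e-06), with TDESM arrays almost equal. Slit1 stood at 4.86 ± 0.05 in TDESM and 5.11 ± 0.20 in TDECC (SD, n = 3 each) and did not pass the threshold by limma.

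Robo2, a slit receptor, read 6.81, 6.94 and 7.07 in TDESM, against 5.15, 4.66 and 4.61 in TDECC, with no overlap. It differed by 2.13 (SE 0.17, limma adjusted p = 1.01e-04). Its other probe sets differed by 5.15, against TDECC values as low as the Trpn controls, and by 1.58. Both also passed, so all 3 read it higher. Robo1, a second slit receptor, read 4.39, 4.75 and 4.43 in TDESM, against 3.96, 3.95 and 4.25 in TDECC. These values are low in both strains and differed by 0.47 (limma adjusted p = 0.0482). The Robo1 call was lost without any 1 array except TDECC replicate 3 (adjusted p up to 0.163), and centred on the poly-A controls Robo1 turned to -0.80. Robo1 and Robo2 lie on the same chromosome in the RefSeq annotation, with 1 other protein-coding gene between them.

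Slit2 and Slit3 also share a microRNA. A copy of rno-miR-218a-5p is annotated inside the RefSeq span of each gene, at chr14:66922413-66922433 (minus strand) in Slit2 and chr10:20572547-20572567 (plus strand) in Slit3 (GRCr8). The mature sequences are shown with the seed, bases 2 to 8, in capitals, because both copies carry the same seed. rno-miR-218b is annotated on the opposite strand of the Slit2 copy, with another seed.
rno-miR-218a-5p: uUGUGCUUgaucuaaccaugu
rno-miR-218b: cAUGGUUAgaucaagcacaa
The arrays gave no value for these microRNAs here, and the orientation of Slit2 is not in the table used.

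The netrin receptors Unc5b and Unc5c were higher in TDESM, while the ligand read lower by only 1 of its 3 probe sets. Netrin-1 attracts cells through Dcc and repels them through Unc5 receptors. Of 4 genes, 2 were higher and 1 lower (1 and 2 centred on the poly-A controls). Unc5b read 9.81, 9.11 and 9.04 in TDESM, against 4.16, 5.06 and 5.66 in TDECC. All TDESM arrays lie over 3 units above every TDECC array, though both groups spread. The difference was 4.36 (SE 0.39, limma adjusted p = 1.66e-04), or 20.5-fold. The second probe set of Unc5b differed by 1.88 (SE 0.26). Unc5c differed by 1.35 and 1.93 by its 2 probe sets (limma adjusted p = 0.00137 and 7.06e-05), and centred on the poly-A controls by 0.07, where its call was lost. The 1.93 stands against TDECC values of 3.25, 3.57 and 3.27, about as low as the Trpn controls, and is no exact size. Dcc read near the low end in both strains, at 3.51 ± 0.07 in TDESM and 3.49 ± 0.16 in TDECC (SD, n = 3 each; 95% interval of the difference -0.28 to 0.32). Unc5a, counted among the partner genes below, was low in both strains (3.56 in TDESM and 3.65 in TDECC). It differed by -0.09 and did not pass (limma adjusted p = 0.567).

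Ntn1, netrin-1 itself, read 5.75, 5.89 and 5.37 in TDESM, against 8.38, 6.53 and 7.20 in TDECC. TDECC arrays spread widely but stayed above all TDESM arrays. The difference was -1.70 (SE 0.44, limma adjusted p = 0.0208). It rests on 1 of 3 probe sets; the others differed by -0.08 and 0.06, so the fall of Ntn1 is uncertain. Leaving out each TDESM array in turn also lost its call (adjusted p as high as 0.0861).

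Ephrin-A ligands split between the strains. Of 5 ephrin genes, 1 was higher and 2 lower in TDESM (1 and 4 centred on the poly-A controls). Efna1, ephrin-A1, a ligand of Epha2, read 6.69, 6.42 and 7.10 in TDESM, against 9.33, 9.56 and 9.36 in TDECC. The strains stood clearly apart, by -2.68 (SE 0.19, limma adjusted p = 4.75e-05) and by -2.80 with the second probe set. Efna5, ephrin-A5, read 7.46, 7.46 and 7.48 in TDESM, against 5.09, 5.58 and 4.51 in TDECC. It was higher by 2.41 (SE 0.26, limma adjusted p = 3.63e-04), and by 0.37 with a second, dimmer probe set that also passed. Efna4, ephrin-A4, was lower by 1.07 in TDESM, at 6.95 ± 0.17 in TDESM and 8.02 ± 0.26 in TDECC (SD, n = 3 each; limma adjusted p = 0.00238). Efna1 and Efna4, which both fell, are neighbours in the RefSeq annotation with 1 protein-coding gene between them. Efnb1 and Efnb3, the ephrin-B ligands read here, did not pass with all arrays. Efnb2 was not among the genes read. Efnb1 read 7.69, 7.73 and 7.58 in TDESM, against 8.44, 9.06 and 7.73 in TDECC, where the last array meets the TDESM values. Its difference was -0.74 (95% interval -1.48 to -0.01), and it passed without TDECC replicate 3. Efnb3 differed by -0.44 (limma adjusted p = 0.0623) and passed without TDECC replicate 1.

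Of the 8 EphA receptor genes, Epha2 and Epha4 were lower and Epha3 and Epha7 higher in TDESM. Centred on the poly-A controls 0 were higher and 6 lower, with Epha3 and Epha7 at 0.12 and 0.17. Epha2, a receptor known from epithelia and carcinomas, read 8.86, 8.97 and 8.76 in TDESM, against 11.68, 11.58 and 11.43 in TDECC. It fell by 2.70 (SE 0.12, limma adjusted p = 5.36e-06), or 6.5-fold, with narrow groups. Epha4, which binds ephrins of both classes, read 7.89, 7.56 and 7.49 in TDESM, against 10.51, 10.61 and 10.86 in TDECC. All 4 of its probe sets were lower, from -1.64 to -3.01 (limma adjusted p = 1.08e-05 for the set with the highest mean). Epha3 was higher by 1.39, at 5.02 ± 0.11 in TDESM and 3.63 ± 0.07 in TDECC (SD, n = 3 each; limma adjusted p = 1.08e-04), and by 0.67 and 0.37 with its other probe sets, the last not past the threshold. The 0.67 stands against TDECC values as low as the Trpn controls and is no exact size. Epha7 was higher by 1.44, at 6.81 ± 0.14 in TDESM and 5.37 ± 0.16 in TDECC (SD, n = 3 each; limma adjusted p = 2.05e-04), and differed by 0.44 with a second probe set that did not pass. Epha5, Epha6, Epha8 and Epha10 differed by -0.11 to 0.27 and did not pass.

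EphB receptors differed little. Of 4 genes, 2 were higher and 1 lower, none by 2-fold (0 and 3 centred on the poly-A controls). Ephb3 read 8.38, 8.45 and 8.44 in TDESM, against 7.86, 7.85 and 7.45 in TDECC, a difference of 0.70 (limma adjusted p = 0.00776), which turned to -0.57 centred on the poly-A controls. Ephb4, the receptor of ephrin-B2, was lower by 0.60 in TDESM (limma adjusted p = 0.00971), a call lost centred on housekeeping genes. Ephb6, a receptor without kinase activity, differed by 0.34 (limma adjusted p = 0.0478). The Ephb6 call was lost without any 1 array except TDECC replicate 3 (adjusted p up to 0.148), and its sign turned, to -0.93, centred on the poly-A controls. Ephb1 differed by -0.26 and did not pass.

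**Figure D2:**
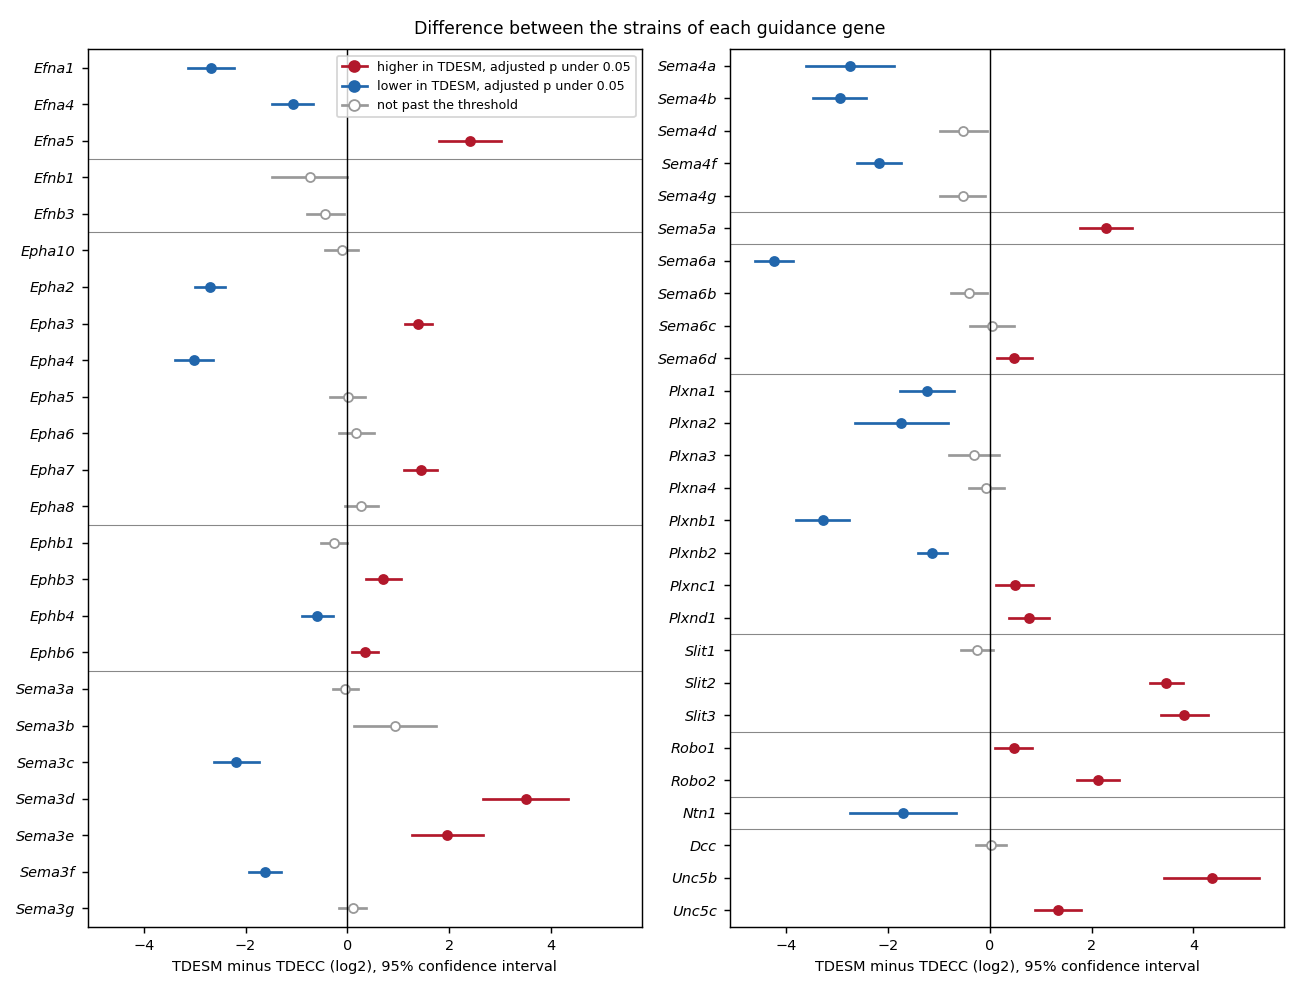
TDESM minus TDECC (log2, horizontal axes) of the 51 guidance genes with 95% confidence intervals from limma; red is higher and blue lower in TDESM at an adjusted p under 0.05, and open grey points did not pass. Differences run from -4.24 (Sema6a) to 4.36 (Unc5b), and 4 of 5 slit and robo genes lie right of 0; centred on the poly-A controls the median probe set moves to -1.30 and Robo1 turns to -0.80.

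Semaphorins moved in both directions. Of 17 genes, 4 were higher and 6 lower in TDESM (3 and 13 centred on the poly-A controls). Class 3 semaphorins are secreted, and most of them need a neuropilin beside a plexin. Among the 7 genes of this class Sema3d and Sema3e were higher and Sema3c and Sema3f lower (2 and 4 centred on the poly-A controls). Sema3d read 7.66, 6.80 and 6.40 in TDESM, against 3.94, 3.26 and 3.17 in TDECC, well apart despite the spread in both strains. Its difference was 3.50 (SE 0.35, limma adjusted p = 2.82e-04), with 2 of the TDECC values as low as the Trpn controls. Sema3e, which binds plexin-D1 without a neuropilin, was higher by 1.96 (SE 0.29), with levels of 6.38 ± 0.19 in TDESM and 4.42 ± 0.60 in TDECC (SD, n = 3 each; by limma, adjusted p = 0.00190). Sema3c read 9.97, 9.99 and 9.66 in TDESM, against 12.22, 12.24 and 11.71 in TDECC. It was thus well above the low end in both strains and lower in TDESM by 2.18 (SE 0.18, limma adjusted p = 1.20e-04). Sema3f, a ligand that acts through Nrp2, was lower by 1.62 and by 2.50 with its 2 probe sets (limma adjusted p = 1.01e-04 and 1.87e-05). Sema3b read 5.40, 5.58 and 5.74 in TDESM, against 4.48, 5.43 and 4.01 in TDECC, where the second array lies within the TDESM values. It differed by 0.93 and did not pass (limma adjusted p = 0.0727), but passed without TDECC replicate 2. Centred on the poly-A controls Sema3b turned to -0.34, not past the threshold. Sema3a and Sema3g differed by -0.04 and 0.11 and did not pass.

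Sema3a, Sema3c, Sema3d and Sema3e lie on 1 chromosome in the RefSeq annotation. Sema3c and Sema3e are parted by 4 protein-coding genes and differed in opposite directions, by -2.18 and 1.96. Sema3a and Sema3d are adjacent and differed by -0.04 and 3.50. The neighbours Sema3b and Sema3f, with 3 protein-coding genes between them, differed by 0.93 and -1.62.

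Class 4 semaphorins, which span the membrane, were lower in TDESM in 3 of 5 genes and higher in 0 (5 and 0 centred on the poly-A controls). Sema4a read 5.75, 5.70 and 5.83 in TDESM, against 8.78, 9.12 and 7.61 in TDECC. It differed by -2.74 (SE 0.36, limma adjusted p = 0.00103), with the spread lying in TDECC. Sema4b read 6.15, 6.55 and 6.17 in TDESM, against 9.30, 9.58 and 8.83 in TDECC, a difference of -2.95 (SE 0.22, limma adjusted p = 6.16e-05). Sema4f read 5.02, 5.15 and 4.97 in TDESM, against 7.57, 6.89 and 7.20 in TDECC. It differed by -2.17 (SE 0.18, limma adjusted p = 1.23e-04). None of these groups overlapped. Sema4d, the ligand of plexin-B1, stood at 4.04 ± 0.20 in TDESM and 4.55 ± 0.33 in TDECC (SD, n = 3 each), and Sema4g differed by -0.53. Neither passed with all arrays (limma adjusted p = 0.0828 and 0.0640), and both passed without TDECC replicate 3.

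Sema6a and Sema5a showed the remaining large differences. Sema6a, a membrane-spanning ligand of plexin-A2 and plexin-A4, read 4.95, 5.01 and 5.11 in TDESM, against 9.16, 9.56 and 9.07 in TDECC. Its difference was -4.24 (SE 0.16, limma adjusted p = 1.94e-06), or 18.9-fold. The other 4 probe sets of Sema6a differed by -0.33 to -1.23, of which 3 passed, so direction was shared and size was not. Sema5a, which carries thrombospondin repeats, read 6.02, 6.49 and 6.44 in TDESM, against 3.78, 3.89 and 4.44 in TDECC. It was higher by 2.28 (SE 0.22, limma adjusted p = 2.13e-04) and by 1.31 with a second probe set, while 2 dimmer ones differed by 0.13 and -0.14. Sema6d was low in both strains and was higher by 0.48 in TDESM (limma adjusted p = 0.0378). That call was lost without TDECC replicate 1 or 2 or TDESM replicate 1 or 3 (adjusted p up to 0.137), and Sema6d turned to -0.79 centred on the poly-A controls. Sema6b and Sema6c differed by -0.40 and 0.04 and did not pass with all arrays, and Sema6b passed without TDECC replicate 2.

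**Figure D3:**
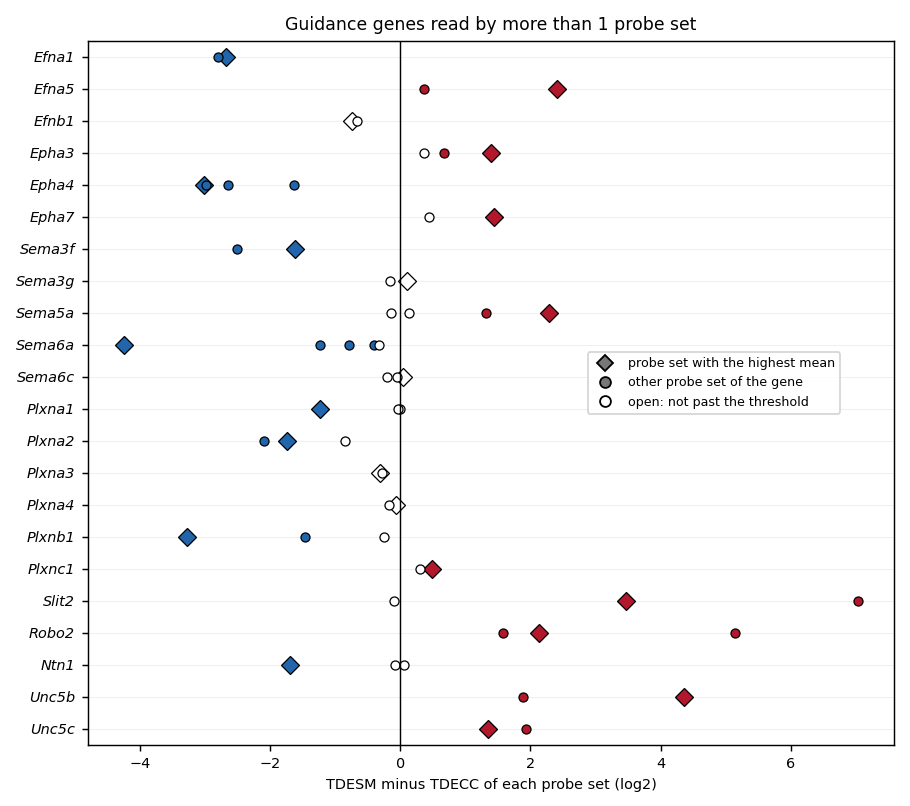
TDESM minus TDECC (log2, horizontal axis) of each of the 59 probe sets of the 22 guidance genes with more than 1; diamonds are the probe set with the highest mean, circles the others, and open symbols did not pass. In 7 genes all probe sets passed in the same direction, in 10 only some did, in 5 none did, and in 0 genes did probe sets pass in opposite directions, under the deposited scaling.

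Of 8 genes of plexins, the semaphorin receptors, 4 were lower and 2 higher in TDESM, and centred on the poly-A controls 7 were lower and 0 higher. Plxnb1 read 4.97, 5.41 and 5.81 in TDESM, against 8.82, 8.54 and 8.67 in TDECC. It fell by 3.28 (SE 0.22, limma adjusted p = 3.65e-05), and TDESM arrays spread more than TDECC arrays. Other probe sets of Plxnb1 differed by -1.47, which passed, and by -0.25, which did not. Plxnb2 stood at 10.50 ± 0.16 in TDESM and 11.63 ± 0.02 in TDECC (SD, n = 3 each), lower by 1.12 (limma adjusted p = 4.07e-04). Plxna2, a receptor of Sema6a, read 6.87, 6.66 and 6.91 in TDESM, against 7.78, 9.44 and 8.42 in TDECC. The TDECC arrays spread widely, and the difference of -1.73 (limma adjusted p = 0.0111) was lost without TDESM replicate 2 (adjusted p = 0.0514). Plxna1 was lower by 1.23 in TDESM (limma adjusted p = 0.00457) by 1 of 3 probe sets, and by 0.42 with their mean. Plxnd1, the receptor of Sema3e, was higher by 0.77, at 7.76 ± 0.28 in TDESM and 6.99 ± 0.10 in TDECC (SD, n = 3 each; limma adjusted p = 0.00913), and turned to -0.50 centred on the poly-A controls. Plxnc1 differed by 0.49 (limma adjusted p = 0.0433) near the low end, and by -0.78 centred on the poly-A controls. The Plxnc1 call was lost without any 1 array except TDESM replicate 3 (adjusted p up to 0.153). Plxna3 and Plxna4 differed by -0.31 and -0.07 and did not pass.

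Ligands and receptors known to bind each other differed in the same direction in some pairs and in opposite directions in others. In TDESM, Slit2 (3.47) and Slit3 (3.82) were higher with Robo2 (2.13), and Sema3e (1.96) with Plxnd1 (0.77, or -0.50 centred on the poly-A controls). Lower in TDESM were Efna1 (-2.68) with Epha2 (-2.70) and Epha4 (-3.01), and Sema6a (-4.24) with Plxna2 (-1.73). Ntn1 (-1.70, or -0.57 averaged over its 3 probe sets) and Unc5b (4.36) were read in opposite directions, though the fall of Ntn1 is uncertain. So were Efna5 (2.41) and Epha4 (-3.01), and Sema3f (-1.62) and the co-receptor Nrp2 (2.33, or 1.62 averaged over its 2 probe sets). Sema3c (-2.18) likewise stood against Nrp1 (5.15) and Nrp2, and Sema4d (-0.52), which did not pass, stands beside Plxnb1 (-3.28). These pairs were picked with the values known and are not all known pairs, and protein or binding was not measured.

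Spread between arrays was not the same in both strains. The SD was larger in TDECC than in TDESM for 38 of the 51 genes, and for 10986 of all 14217 genes. Among the wide ones were Ntn1 (SD 0.27 in TDESM and 0.94 in TDECC), Plxna2 (0.13 and 0.84), Sema4a (0.07 and 0.79) and Unc5b (0.43 and 0.75). Arrays of a strain correlated at 0.994 to 0.997 in TDESM and at 0.974 to 0.976 in TDECC across probe sets, and at 0.823 to 0.852 between strains.

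Partners of the guidance receptors also differed. A list of 86 co-receptors, adaptors and regulators of the actin skeleton held 1 gene that is itself a guidance receptor (Epha10), and 76 of the rest were measured. Of these 21 were higher and 21 lower (55.3%, beside 42.1% of all genes), with a median difference of -0.05. The list was drawn up with earlier results of these data known, so its share describes the list only. Centring on the poly-A controls gave 11 higher and 56 lower. The neuropilins, co-receptors of class 3 semaphorins, were both higher in TDESM. Nrp1 read 9.03, 8.90 and 8.87 in TDESM, against 3.93, 3.79 and 3.64 in TDECC, a difference of 5.15 (SE 0.12, limma adjusted p = 3.60e-07). Averaged over its 2 probe sets the difference was 5.77. Those TDECC values lay near the low end, so the size of the difference is uncertain. Nrp2 read 10.58, 10.72 and 10.52 in TDESM, against 8.98, 8.22 and 7.64 in TDECC. Its difference was 2.33 (SE 0.31, limma adjusted p = 0.00115), or 1.62 averaged over its 2 probe sets. Neither neuropilin had overlapping groups.

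Nrp1 was among the 6 partners with the largest measured rises. The others were Gpc1 (6.87), a heparan sulphate proteoglycan that binds slits, Flrt2 (5.38), a membrane protein that binds Unc5 receptors, Mical1 (4.86), an enzyme that oxidises actin below plexins, the kinase Fyn (4.28, or 2.98 averaged over its probe sets) and Farp1 (3.17), an activator of small GTPases. The TDECC values of Flrt2 and Fyn were as low as the Trpn controls, so their differences have no exact size and the order of these rises is not fixed. The largest falls were those of Vav3 (-3.68) and Ngef (-2.08), which activate small GTPases and act with Eph receptors, and Ablim1 (-2.78, or -1.29 averaged over its 3 probe sets), an actin-binding protein. With them fell the adaptor Grb7 (-2.66), Flrt3 (-2.53), a relative of Flrt2 that also binds Unc5b, and Micall2 (-2.20), a protein of junction traffic. The 6 rises had limma adjusted p between 1.42e-07 and 1.26e-04 and the 6 falls between 1.10e-05 and 0.00936. Each of these 12 genes had groups that did not overlap. Flrt2 and Flrt3, related ligands, thus moved in opposite directions under each scaling run.

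**Figure D4:**
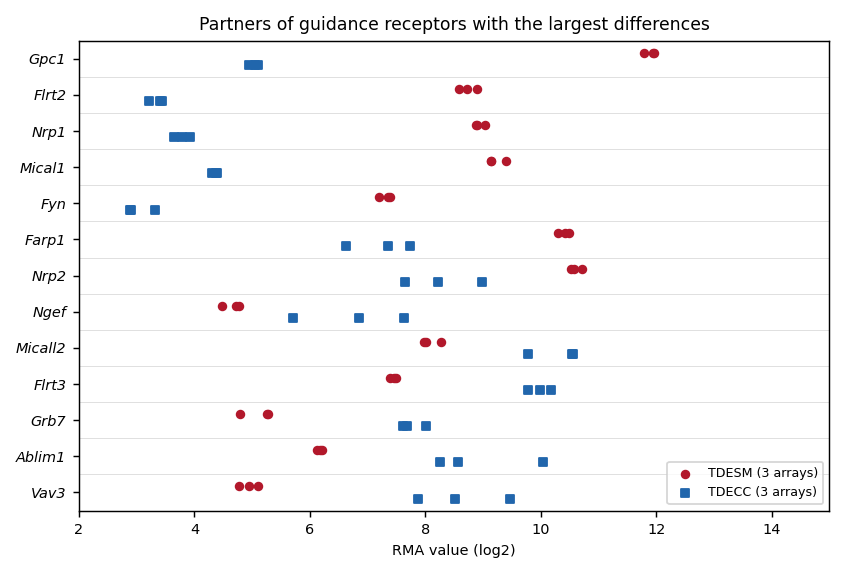
Log2 RMA values (horizontal axis) on each array of the 12 partner genes with the largest measured differences and of Nrp2, TDESM as red circles and TDECC as blue squares. Gpc1 reads 11.78 to 11.96 in TDESM and 4.94 to 5.10 in TDECC, and no gene shown has overlapping strains; levels of different genes are not comparable.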

How the data were processed

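The deposited values, 1 log2 value per probe set and array, were produced with RMA by the authors (per the submitters' processing notes); its version and the array definition are not given in the sources used here. Per the labels' protocols, Trizol-extracted total RNA was made into biotinylated cRNA. Titles gave each array its group and replicate.

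In R 4.3.3, limma 3.58.1 (lmFit and eBayes, two-sided, Benjamini-Hochberg over 31042 probe sets after leaving out 57 controls, threshold 0.05) was fitted without filter or block. Platform annotation gave 20826 probe sets 1 symbol, 436 several and 9780 none; 99.7% of the Entrez identifiers matched GRCr8 RefSeq, and 0 symbols changed. A gene was read by whichever of its single-symbol probe sets averaged highest across all 6 arrays. No member probe set was of a type shared between genes by its name, and 3 were of the type shared between transcripts of a gene. Named genes: all members, with every array's value for those past the threshold with a log2 difference of at least 2; and up to 6 partners each way, with Nrp1 and Nrp2. A value on every array was added for some others after seeing them. Members, gene lists and motifs were chosen with earlier results of these data known. Deviations of same-numbered arrays correlated at -0.04, -0.01 and -0.09, within the -0.12 to 0.14 of arrays with different numbers. With 3 arrays per strain this check cannot exclude a pairing. The limma step was run on simulated independent arrays with planted differences, which cannot test how the p-values hold for these arrays. Alternatives are given in the closing section.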

Additional observations from a re-analysis of the deposited data

How the results depend on the processing

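Of the 33 guidance genes that passed, 27 passed without each array in turn and 21 passed in the same direction in each of up to 14 settings run (normalization, centring, filter, eBayes settings, block, arrays left out, gene-level fits). Cyclic loess, trend and robust eBayes, a fit over genes and the mean of probe sets changed no call of a guidance gene. Leaving out each array gave 28 to 35 guidance genes, 13 to 16 higher and 14 to 19 lower. Centring on 17 measured housekeeping genes lost Ephb4, Ephb6, Robo1 and Sema6d and gained Sema3b. The check above showed no pairing by replicate number but cannot exclude it. A replicate block gave 30 guidance genes (13 higher, 17 lower), 46 probe sets and 38 partners. Averaging a gene's probe sets moved some differences by over 1.5 times with the call kept: Efna5 1.39, Epha3 0.81, Epha7 0.94, Ntn1 -0.57, Plxna1 -0.42, Plxnb1 -1.67, Sema5a 0.90 and Sema6a -1.40. A minimum log2 difference of 1 left 11 guidance genes higher, and 13 partners lower. Without the dimmest probe sets (20683 kept), 40 of the 51 genes were tested and 15 member probe sets were higher, since dim ones were not tested.

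Centred on the poly-A controls, 78 member probe sets passed (11 higher, 67 lower), as did 8 guidance genes higher and 37 lower, and 67 partners (11 higher, 56 lower). Signs turned there for Dcc (-1.25), Epha5 (-1.27), Epha6 (-1.10), Epha8 (-1.0), Ephb3 (-0.57), Ephb6 (-0.93), Plxnc1 (-0.78), Plxnd1 (-0.50), Robo1 (-0.80), Sema3b (-0.34), Sema3g (-1.17), Sema6c (-1.23) and Sema6d (-0.79). Whether the controls were added in equal amounts was not tested. The number of arrays, and the lack of detection calls for dim probe sets, limit what can be said of genes near the low end.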
